A study of Mus musculus with 18 samples.

Results

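YAP, its paralog TAZ, the TEAD transcription factors and 4 of their well-known target genes were followed by messenger RNA in mouse prostate cancer cells with and without knockdown of Rnf185. The 10 genes were taken by symbol and matched to Ensembl identifiers: the coactivators Yap1 and Wwtr1 (which encodes TAZ), the factors Tead1, Tead2, Tead3 and Tead4, and the targets Amotl2, Ankrd1, Lats2 and Ajuba. They are 10 of the 47643 genes in the deposited count table, and all 10 were among the 14309 genes with enough counts to test. MPC3, a mouse prostate cancer cell line, was the source of all 18 libraries, with 6 libraries each from a control labelled plko and from cells with shRNF185.1 or shRNF185.3, which are short hairpin RNAs that target Rnf185. No drug, time course or other genotype separates the groups, and the labels give 3 batches, each with 2 consecutively numbered libraries of every group (batch 1 starts at number 1, batch 2 at 3 and batch 3 at 5). The labels call the 6 libraries of a group replicates without saying that they were separate cultures. P-values thus measure the spread between these libraries, in counts that were adjusted for batch before deposit. Since the line was measured in bulk, fewer cells of a kind and less RNA per cell cannot be told apart.

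YAP and TAZ are the transcriptional coactivators restrained by the Hippo pathway. In that pathway the kinases MST1 and MST2 activate the kinases LATS1 and LATS2, which phosphorylate YAP and TAZ and hold them out of the nucleus. When the restraint is relieved, as on stiff matrix or at low cell density, YAP and TAZ enter the nucleus. There they bind TEAD factors on DNA and raise genes for growth, adhesion and matrix. Some of the raised genes, such as Lats2 and Amotl2, encode proteins that restrain YAP in turn. Messenger RNA levels do not show phosphorylation or nuclear localisation, which is where most of this regulation is known to act.

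Counts per library ran from 22027395 to 43379662. Rnf185, the targeted gene, which encodes a RING finger ubiquitin ligase of the endoplasmic reticulum, stood at 33.6 to 38.4 CPM (library-scaled counts, the unit of the deposited values) in the control and at 5.19 to 6.80 CPM in the 12 hairpin libraries. Its log2 fold change was -2.63 with either hairpin, which leaves 16.2% of the control level. Of the markers used to check the line, Krt8, Krt18, Cdh1 and Hoxb13 were present, Pbsn was at 0 in all libraries, and Epcam (at most 0.291 CPM) and Krt5 were at or near 0. The lymphocyte marker Cd3e was at 0 in every library, the leukocyte marker Ptprc had at most 3 counts, and the summed endothelial markers Pecam1 and Cdh5 reached at most 0.390 CPM. The macrophage marker Cd68 reached 5.04 CPM. The summed CPM of 6 epithelial markers was 1460 to 1760 in the control, 904 to 1170 with shRNF185.1 and 973 to 1040 with shRNF185.3, and 4 and 3 of its 4 testable genes were called lower than in the control, as were 14.3% and 13.1% of all genes tested. The mesenchymal genes Vim, Cdh2 and Fn1 together gave 4630 to 6500, 5440 to 6420 and 6110 to 7620 CPM, and of these Fn1 was called, higher with shRNF185.3. Cd68 was called lower with shRNF185.1. The part of these markers in the results below was not tested.

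TEAD factors recognise the letters GGAATG, or CATTCC on the other strand. Promoter sequences are shown here to give the places where that motif occurs near the start sites of these genes. RefSeq promoter windows of GRCm38.p6, from 250 bases before to 50 bases after a start site, were on hand for 8 of the 10 genes, all but Tead1 and Tead4. The motif was searched on both strands. It was found in 7 of the 8 genes, Tead2 being the exception, and in 16.6% of the 27025 genes with such a window. Capitals mark the motif in the lines that follow, each of which runs 5′ to 3′ on the strand of its gene. The 250 bases before the start of Ajuba (chr14:54577662-54577911, minus strand) hold 2 copies that begin 186 and 164 bases before the start, both read as CATTCC, and overlap no annotated exon of the gene.
Ajuba upstream: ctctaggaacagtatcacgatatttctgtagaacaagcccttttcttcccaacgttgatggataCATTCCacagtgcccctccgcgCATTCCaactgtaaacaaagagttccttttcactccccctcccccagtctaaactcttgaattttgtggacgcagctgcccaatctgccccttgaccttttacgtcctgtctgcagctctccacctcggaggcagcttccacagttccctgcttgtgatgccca
The 250 bases before the first listed start of Lats2 (chr14:57746124-57746373, minus strand) hold no copy.
Lats2 upstream: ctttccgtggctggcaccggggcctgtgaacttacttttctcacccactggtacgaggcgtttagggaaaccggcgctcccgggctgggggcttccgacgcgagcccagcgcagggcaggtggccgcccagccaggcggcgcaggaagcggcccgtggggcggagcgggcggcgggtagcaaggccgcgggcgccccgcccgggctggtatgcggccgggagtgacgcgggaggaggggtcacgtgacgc
Its single copy begins at base 5 after that start, in a stretch annotated as 5′ untranslated exon (chr14:57746102-57746131).
Lats2 site: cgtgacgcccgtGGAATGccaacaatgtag
The second listed start of Lats2 has no copy in its window.

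Ankrd1 and Amotl2 also carry the motif, and in both the site lies in a stretch that GENCODE M21 annotates as untranslated exon of a longer transcript. Ankrd1 has copies that begin 210 bases (chr19:36120037-36120066, minus strand) and 123 bases (chr19:36119950-36119979) before the RefSeq start, and Amotl2 has 1 that begins 65 bases before it (chr9:102717727-102717756, plus strand).
Ankrd1 first site: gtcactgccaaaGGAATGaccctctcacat
Ankrd1 second site: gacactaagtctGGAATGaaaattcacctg
Amotl2 site: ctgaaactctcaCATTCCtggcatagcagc
The coactivator genes have the same letters in their own promoters. Yap1 has a copy that begins 141 bases before its start (chr9:8004720-8004749, minus strand), and Wwtr1 has 1 that begins 136 bases before its first listed start (chr3:57576029-57576058, minus strand), neither of them in an exon of its gene.
Yap1 site: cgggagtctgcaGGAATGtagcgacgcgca
Wwtr1 site: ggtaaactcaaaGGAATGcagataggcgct
Tead3 is shown as a factor gene with a pair of copies that begin 9 bases apart, at 123 and 114 bases before its second listed start (chr17:28350697-28350726, minus strand, untranslated exon).
Tead3 site: gctCATTCCgtaCATTCCggccatccccct
These matches describe letters in a short window and do not show that TEAD binds there in MPC3 cells.

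In the control cells TAZ message stood above YAP message, and Tead2 was the leading TEAD gene per length of exons. In CPM, Wwtr1 also led Yap1 (means 247 and 148), but Tead1 led Tead2 (117 and 82.4). A scale of CPM per kilobase takes all annotated exons as the length (13570 bases for Tead1, 4788 for Tead2). That length need not be the length of the transcripts in these cells. On this scale the order of control means was Wwtr1 51.8 ± 4.20 (SD, n = 6), Ankrd1 35.6 ± 11.7, Ajuba 33.1 ± 4.70, Amotl2 23.6 ± 5.20, Tead2 17.2 ± 1.73, Yap1 16.0 ± 0.734, Tead1 8.65 ± 0.721, Tead4 5.90 ± 0.845, Lats2 4.56 ± 0.263 and Tead3 1.53 ± 0.287. Neighbours in that order from Wwtr1 down to Yap1 overlapped in their library ranges. From Yap1 on, each gene lay below the one before it in all 6 control libraries. Wwtr1 made up 76.4% ± 1.57 of the summed level of the coactivator pair in the control, 77.6% ± 1.74 with shRNF185.1 and 75.9% ± 1.31 with shRNF185.3. All 10 genes were counted in every library, with the lowest count of any of them being 219, for Tead3.

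**Figure D1:**
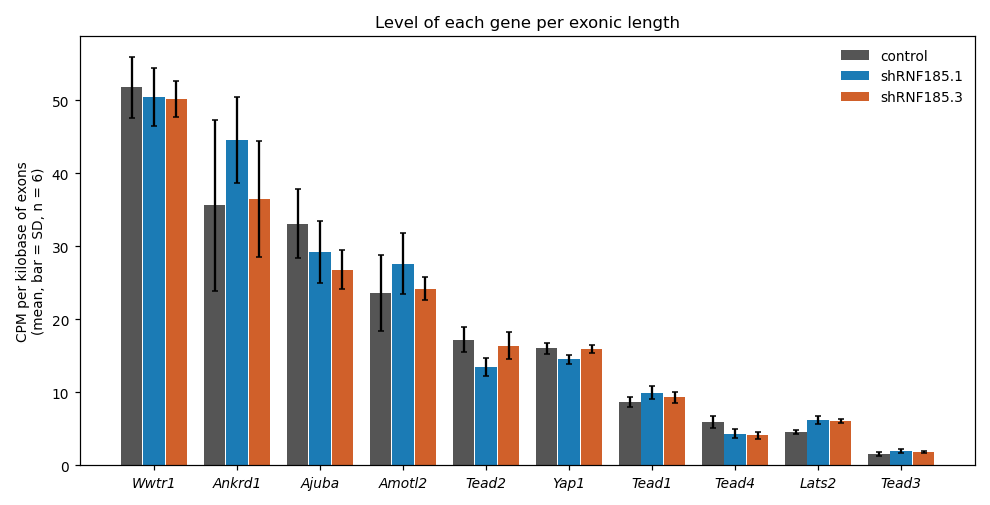
Bars give the mean CPM per kilobase of exons of each gene in the control (grey), shRNF185.1 (blue) and shRNF185.3 (orange) libraries, with the SD over 6 libraries as the error bar, ordered by the control mean. Wwtr1 leads at 51.8 in the control and Tead3 is lowest at 1.53.

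With shRNF185.1, 5 of the 10 genes were called (edgeR quasi-likelihood test, Benjamini-Hochberg adjusted p under 0.05 over all genes tested), against 28.9% of all 14309 genes. Tead1 and Lats2 were higher (14.6% of all genes were called higher) and Yap1, Tead2 and Tead4 were lower (14.3% of all genes). With shRNF185.3, 3 of the 10 were called against 27.3% of all genes: Lats2 was higher (14.2% of all genes were called higher), and Tead4 and Ajuba were lower (13.1%). The share with shRNF185.3 is thus near the share of all genes. Lats2 up and Tead4 down were the calls made with both hairpins, which were compared with the same control libraries. The share of all genes called with both hairpins was not counted, so these calls have no background beside them. The median log2 fold change of the 10 was 0.08 with shRNF185.1 and 0.02 with shRNF185.3, beside -0.02 for all genes with either hairpin, and the median size of the change was 0.26 and 0.09, beside 0.16 and 0.15. Over all genes, 50.6% of the calls with shRNF185.1 and 51.8% of those with shRNF185.3 were higher, which became 43.8% and 36.9% with an offset for GC content and length.

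**Figure D2:**
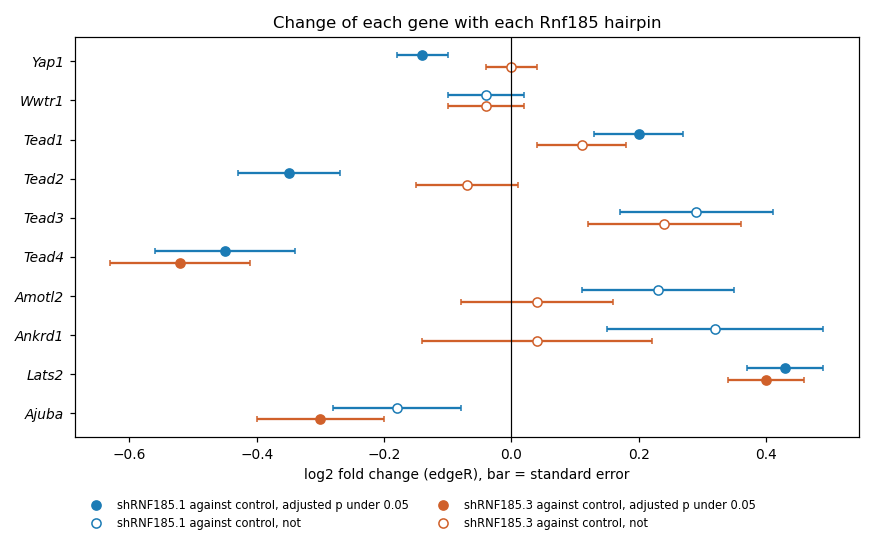
Points give the log2 fold change of each gene against control for shRNF185.1 (blue) and shRNF185.3 (orange), with the standard error as the bar, and filled points have an adjusted p under 0.05. Lats2 (0.43 and 0.40) and Tead4 (-0.45 and -0.52) are filled for both hairpins.

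The coactivators moved little. Yap1 (ENSMUSG00000053110, chr9:7931999-8004596 on GRCm38, minus strand), which binds TEAD through its N-terminal part and activates transcription, ranged from 136 to 155 CPM in the control with a median of 150. It ranged from 125 to 140 CPM with a median of 136 with shRNF185.1, and from 140 to 154 CPM with a median of 149 with shRNF185.3. Thus 3 of the 6 shRNF185.1 libraries lay below the lowest control, while every shRNF185.3 library lay within the control range. Yap1 fell by 0.14 (SE 0.04, adjusted p 0.0133) on the log2 scale with shRNF185.1, to 91.0% of control. With shRNF185.3 its log2 fold change was 0.00 (SE 0.04, adjusted p 0.991). The call with shRNF185.1 was lost without batch 1 (-0.11, adjusted p 0.199), without batch 2 (-0.11, adjusted p 0.128), with the 2 libraries of a group and batch summed (adjusted p 0.0885) and with no filter on low counts (adjusted p 0.0548).

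Wwtr1 (ENSMUSG00000027803, chr3:57455649-57575910, minus strand), the TAZ gene, was the most abundant of the 10 per length and was not called with either hairpin. Its CPM ran from 221 to 274 in the control (median 251), from 216 to 264 with shRNF185.1 (median 242) and from 223 to 251 with shRNF185.3 (median 241). The 3 groups lay over each other. The log2 fold changes were -0.04 (SE 0.06, adjusted p 0.702) and -0.04 (SE 0.06, adjusted p 0.644).

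Among the TEAD genes, which encode the DNA-binding partners, directions were mixed. Tead1 (ENSMUSG00000055320, chr7:112679318-112906807, plus strand), the broadly expressed member, ranged from 103 to 131 CPM in the control (median 116), from 118 to 153 CPM with shRNF185.1 (median 133) and from 117 to 144 CPM with shRNF185.3 (median 123). Of the shRNF185.1 libraries 4 lay above the highest control, and of the shRNF185.3 libraries 1 did. Tead1 rose by 0.20 (SE 0.07, adjusted p 0.0346) on the log2 scale with shRNF185.1, and the value with shRNF185.3 was 0.11 (SE 0.07, adjusted p 0.261). This call was the least firm of the 5 made with shRNF185.1, since 10 of 32 alternative analyses lost it. Those were the batch as a covariate, a fit of the 2 groups alone, omission of batch 1 or batch 2, and omission of control 1, 2, 4 or 6 or of shRNF185.1 replicate 1 or 5, with adjusted p from 0.0559 to 0.318 and the latter without batch 1 (0.15).

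Tead2 (ENSMUSG00000030796, chr7:45215753-45233644, plus strand), a factor known from early development, was the leading TEAD gene per length of exons, though not in CPM. It was lower with shRNF185.1. It ranged from 72.6 to 93.7 CPM in the control (median 81.6), from 56.4 to 70.2 CPM with shRNF185.1 (median 66.2) and from 66.6 to 88.0 CPM with shRNF185.3 (median 78.5). All 6 shRNF185.1 libraries lay below the lowest control library, a gap without overlap that 12.8% of all genes tested also showed in that comparison, whereas 4 of the 6 shRNF185.3 libraries lay within the control range. Tead2 fell by 0.35 (SE 0.08, adjusted p 0.00246) with shRNF185.1, to 78.3% of control. The value with shRNF185.3 was -0.07 (SE 0.08, adjusted p 0.559). The call with shRNF185.1 held in all 32 alternative analyses, with log2 fold changes from -0.40 to -0.30.

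Tead3 (ENSMUSG00000002249, chr17:28331671-28350817, minus strand), the scarcest of the 10, ranged from 7.78 to 12.6 CPM in the control (median 10.1), from 10.2 to 15.3 CPM with shRNF185.1 (median 13.2) and from 10.5 to 13.0 CPM with shRNF185.3 (median 12.8). With each hairpin 4 of 6 libraries lay above the highest control and the others within its range. The log2 fold changes were 0.29 (SE 0.12, adjusted p 0.0709) and 0.24 (SE 0.12, adjusted p 0.146), so neither was called. Without batch 2 they were 0.57 (adjusted p 0.00139) and 0.41 (adjusted p 0.0138), and the value with shRNF185.1 also passed without control 3 or 4, without shRNF185.1 replicate 3 or 4, and with the offset for GC content and length.

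Tead4 (ENSMUSG00000030353, chr6:128224288-128300823, minus strand), a factor best known from the trophectoderm of the early embryo, was lower with both hairpins. It ranged from 17.7 to 26.6 CPM in the control (median 20.4), from 12.7 to 18.3 CPM with shRNF185.1 (median 15.6) and from 13.6 to 17.9 CPM with shRNF185.3 (median 14.3). The groups touched only at their edges, with 4 shRNF185.1 and 5 shRNF185.3 libraries below the lowest control. Tead4 fell by 0.45 (SE 0.11, adjusted p 0.00333) and by 0.52 (SE 0.11, adjusted p 0.00108), to 73.2% and 69.5% of control. With shRNF185.1 the call was lost without batch 1 (-0.39, adjusted p 0.0666) and without batch 3 (-0.30, adjusted p 0.0918), and with shRNF185.3 it held in all 32 alternative analyses.

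Summed over the 4 TEAD genes, the level was 33.3 ± 1.85 CPM per kilobase (SD, n = 6) in the control, 29.6 ± 0.855 with shRNF185.1 and 31.6 ± 1.25 with shRNF185.3. All 6 shRNF185.1 sums (28.7 to 31.1) lay below all 6 control sums (31.8 to 36.9), and the shRNF185.3 sums (30.2 to 33.1) overlapped both. That gap depends on the scale. Division by exonic bases (4788 for Tead2, 13570 for Tead1) gives Tead2 more weight than CPM does. In CPM, control and shRNF185.1 means were 82.4 and 64.6 for Tead2 and 21.2 and 15.6 for Tead4. They were 117 and 135 for Tead1 and 10.3 and 12.7 for Tead3, and no sum was taken on that scale. Among single genes tested, 12.8% were without overlap in that comparison, in either direction. Tead2 gave 51.6% ± 3.28 of the sum in the control, 45.5% ± 4.09 with shRNF185.1 and 51.7% ± 3.95 with shRNF185.3. Tead1 gave 26.0% ± 2.7, 33.5% ± 2.97 and 29.5% ± 3.24. Tead4 gave 17.7% ± 1.88, 14.6% ± 1.93 and 13.0% ± 1.59, and Tead3 stayed the smallest share at 4.64% ± 1.01, 6.38% ± 1.07 and 5.73% ± 0.506. In all 3 groups Tead2 thus had the largest mean share and Tead1 the second largest.

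**Figure D3:**
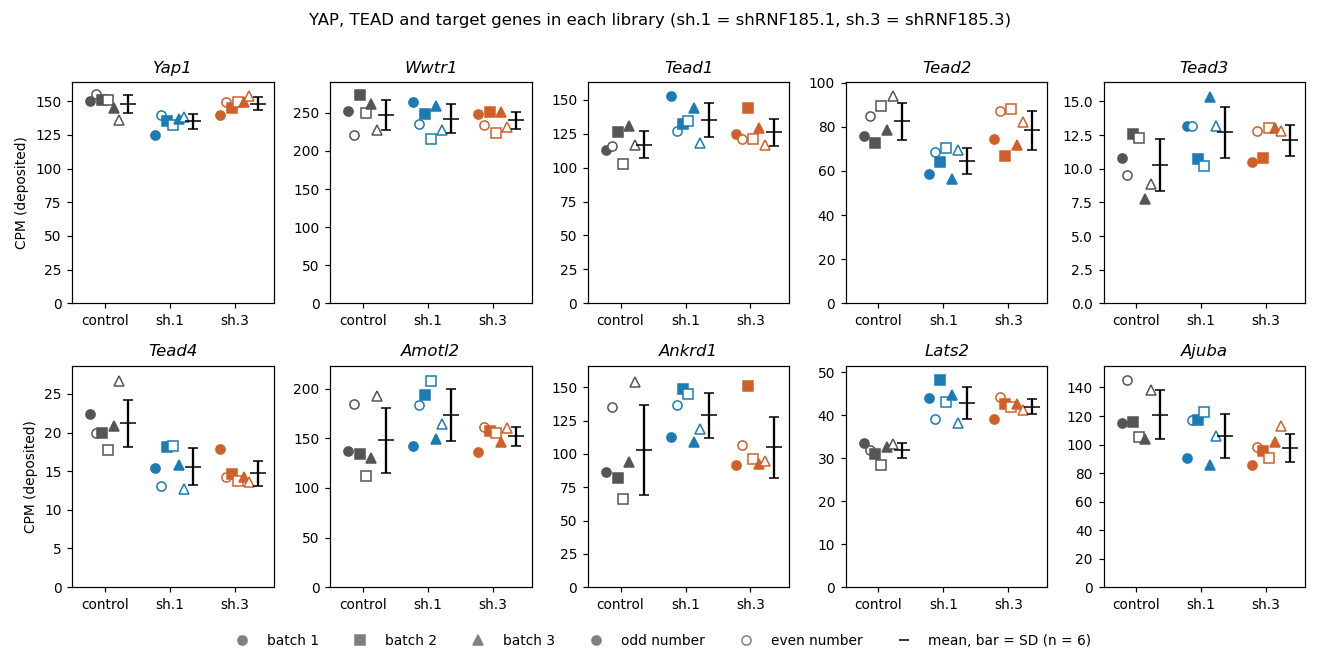
Each point is the deposited CPM of a gene in a single library, by group, with a panel per gene and an axis that starts at 0. Marker shape gives the batch, filled points have odd numbers and open points even numbers, and the black bar is the mean with SD over 6 libraries. All 12 hairpin libraries of Lats2 sit above its control libraries, and the 6 shRNF185.1 libraries of Tead2 sit below its control libraries.

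The 4 target genes did not share a direction. Lats2 (ENSMUSG00000021959, chr14:57689662-57758388, minus strand), the kinase that phosphorylates YAP and TAZ and is itself raised by them, ranged from 28.5 to 33.6 CPM in the control (median 32.3), from 38.2 to 48.1 CPM with shRNF185.1 (median 43.6) and from 39.2 to 44.3 CPM with shRNF185.3 (median 42.3). Every hairpin library lay above every control library. Among all genes tested, 12.8% were without overlap with shRNF185.1 and 13.3% with shRNF185.3, in either direction. No share was counted for both hairpins together. Lats2 rose by 0.43 (SE 0.06, adjusted p 1.23e-05) and by 0.40 (SE 0.06, adjusted p 2.57e-05), which is 1.35-fold and 1.32-fold. Both calls held in all 32 alternative analyses, and within batches 1 to 3 the difference from control was 0.34, 0.61 and 0.33 for shRNF185.1, and 0.35, 0.51 and 0.35 for shRNF185.3. A limit is that 40.5% of the 75-base stretches of the Lats2 transcripts also occur in Gm49361, an overlapping gene model on the same strand that is not used here, so the assignment of those reads to Lats2 rests on the authors' counting. Lats1, the other LATS kinase, had log2 fold changes of 0.04 (adjusted p 0.613) and -0.10 (adjusted p 0.204).

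Ajuba (ENSMUSG00000022178, chr14:54567472-54577558, minus strand), a LIM-domain adaptor that binds and restrains LATS kinases at cell junctions, ranged from 104 to 145 CPM in the control (median 116), from 85.8 to 123 CPM with shRNF185.1 (median 111) and from 85.5 to 113 CPM with shRNF185.3 (median 96.8). With shRNF185.3, 5 of 6 libraries lay below the lowest control, and with shRNF185.1, 2 did. Ajuba fell by 0.30 (SE 0.10, adjusted p 0.0297) with shRNF185.3, and its value with shRNF185.1 was -0.18 (SE 0.10, adjusted p 0.19). The call was lost in 8 of 32 alternative analyses, with adjusted p up to 0.279 without batch 1 (-0.21): without batch 1 or 2, without control 2 or 6, without shRNF185.3 replicate 1, 3 or 4, and with summed libraries.

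Amotl2 and Ankrd1 were not called with either hairpin. Amotl2 (ENSMUSG00000032531, chr9:102716672-102733418, plus strand) encodes a junctional angiomotin that binds YAP and keeps it in the cytoplasm. It ranged from 112 to 193 CPM in the control (median 135), from 142 to 208 CPM with shRNF185.1 (median 174) and from 136 to 161 CPM with shRNF185.3 (median 156). Its log2 fold changes were 0.23 (SE 0.12, adjusted p 0.172) and 0.04 (SE 0.12, adjusted p 0.831). Ankrd1 (ENSMUSG00000024803, chr19:36111961-36120099, minus strand), an ankyrin repeat protein whose gene is among the most used readouts of YAP activity, ranged from 66.0 to 154 CPM in the control (median 90.0), from 109 to 149 CPM with shRNF185.1 (median 128) and from 91.4 to 151 CPM with shRNF185.3 (median 95.3). Its log2 fold changes were 0.32 (SE 0.17, adjusted p 0.18) and 0.04 (SE 0.18, adjusted p 0.893). For both genes the control range covered most of the hairpin libraries.

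Control libraries 2 and 6 decided much of that width. Ankrd1 stood at 135 and 154 CPM in them and at 66.0 to 93.7 CPM in the other 4 controls. Amotl2 also had its highest control values in them, up to 193 CPM, against 112 to 137 CPM, and Ajuba at 145 and 138 CPM against 104 to 116 CPM. Yap1, by contrast, had its highest and its lowest control value in these libraries, 155 and 136 CPM. Leaving out control 6 brought the values with shRNF185.1 past the threshold for Amotl2 (0.32, adjusted p 0.046) and Ankrd1 (0.47, adjusted p 0.0348), and leaving out batch 2 took them to -0.02 and 0.03.

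Differences by batch were wide for these target genes. Within batch 2 the mean of the 2 shRNF185.1 libraries exceeded the mean of the 2 controls by 0.99 for Ankrd1 and 0.72 for Amotl2 on the log2 CPM scale, whereas batches 1 and 3 gave 0.20 and -0.07 for Ankrd1 and 0.02 and -0.02 for Amotl2. With shRNF185.3, Ankrd1 gave -0.12, 0.71 and -0.36 in batches 1 to 3, and Amotl2 gave -0.11, 0.35 and -0.05. Batch 2 is the batch without controls 2 and 6, and its 2 controls had the lowest Ankrd1 levels of the group, 82.3 and 66.0 CPM. Tead3 showed the opposite batch, with -0.25 and -0.07 in batch 2 beside 0.38 and 0.78 (shRNF185.1) and 0.20 and 0.63 (shRNF185.3) in batches 1 and 3. Tead4 was lower in every batch, with differences of -0.58, -0.05 and -0.73 with shRNF185.1 and of -0.40, -0.41 and -0.76 with shRNF185.3. Tead2 with shRNF185.1 gave -0.34, -0.27 and -0.45, and Ajuba with shRNF185.3 gave -0.50, -0.25 and -0.16. Yap1 with shRNF185.1 gave -0.20, -0.18 and -0.03, and Tead1 gave 0.29, 0.23 and 0.08, so for both genes batch 3 held the smallest difference.

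**Figure D4:**
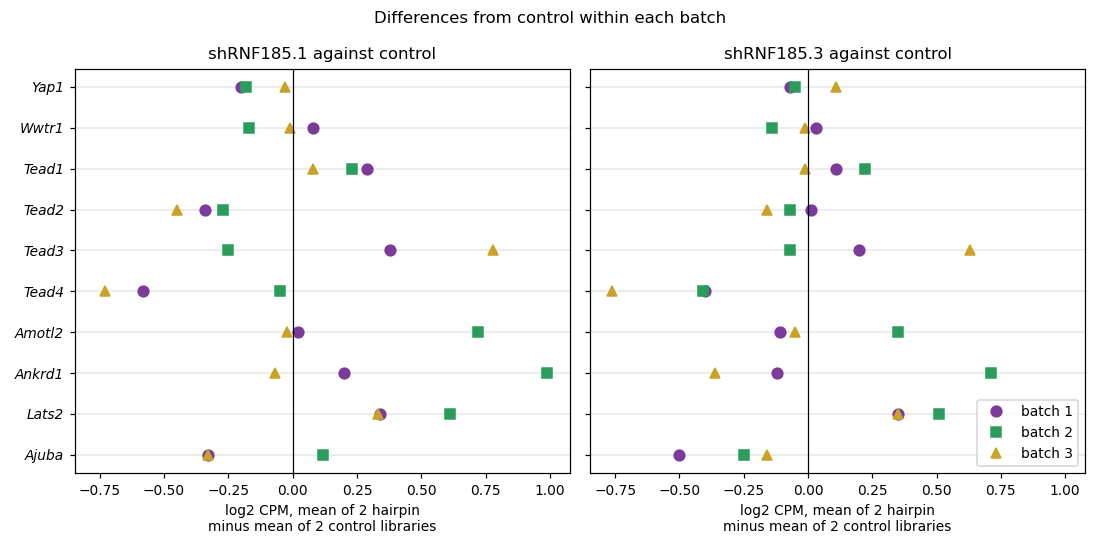
Points give, for each gene and batch, the mean log2 CPM of the 2 hairpin libraries minus that of the 2 control libraries, with shRNF185.1 on the left and shRNF185.3 on the right. Lats2 lies between 0.33 and 0.61 in all batches of both panels, whereas Ankrd1 lies at 0.99 and 0.71 in batch 2 and between -0.36 and 0.20 in the others.

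Some of these genes also differed between the odd and the even number of a batch. What sets the numbers of a batch apart is not given in the labels. Tead2 was higher in the even-numbered library in 9 of 9 combinations of group and batch, by a median of 0.23 on the log2 scale (odd minus even -0.23), and Wwtr1 was higher in the odd-numbered library in 9 of 9, by a median of 0.17. The same direction in all 9 pairs was found for 10.4% of all genes tested, so differences by number were not limited to these genes. The main fit has no term for the number, which leaves such differences in its spread. Tead2 in the control was 75.6, 72.6 and 78.3 CPM in the odd libraries and 84.9, 89.4 and 93.7 CPM in the even ones. With shRNF185.1 the odd libraries had 58.8, 63.9 and 56.4 CPM and the even ones 68.6, 70.2 and 69.5 CPM. All 6 shRNF185.1 libraries lay below all 6 controls, so they also did within either kind of number, which is not a separate result. With shRNF185.3 the odd libraries had 74.6, 66.6 and 71.5 CPM and the even ones 87.3, 88.0 and 82.3 CPM, which overlapped the controls of the same kind.

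Compared directly, the hairpins differed in 2 of the 10 genes, beside 14.7% of all genes (7.72% higher and 6.94% lower with shRNF185.3). Yap1 levels under shRNF185.3 exceeded those under shRNF185.1 by 0.14 (SE 0.04, adjusted p 0.0251), and Tead2 levels by 0.28 (SE 0.08, adjusted p 0.0212). For each of these genes 5 of the 6 shRNF185.3 libraries lay above the highest shRNF185.1 library. None of the 10 genes separated the hairpins without overlap, as 8.25% of all genes did. Neither call was firm, since 12 of 32 alternative analyses lost the one for Yap1 (adjusted p up to 0.171) and 9 lost the one for Tead2 (adjusted p up to 0.232), among them omission of any batch. The other differences ran from -0.28 (SE 0.18) for Ankrd1 to -0.01 (SE 0.06) for Wwtr1. Rnf185 itself differed by 0.00 (SE 0.08, adjusted p 0.997) between the hairpins.

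A list of 24 Hippo pathway genes was examined, of which 23 had enough counts to test (all but Dchs1). They are called regulators below, though Vgll3 and Vgll4 among them encode cofactors of TEAD and are not upstream of YAP. With shRNF185.1, 7 of the 23 were called (30.4%, beside 28.9% of all genes): Wwc2, Taok3, Amotl1, Fat4 and Vgll3 were higher and Stk4 and Taok1 lower, and the list's median log2 fold change was 0.04. With shRNF185.3, 9 were called (39.1%, beside 27.3%): Taok3, Amotl1, Fat4 and Vgll3 were higher and Stk4, Mob1b, Nf2, Wwc1 and Limd1 lower, with a median of -0.04. Calls went in both directions with either hairpin. Among the kinases of the pathway's core, Stk4 (MST1) fell and was at 70.4 to 82.6 CPM in the control, 62.3 to 67.2 CPM with shRNF185.1 and 58.5 to 62.1 CPM with shRNF185.3, without overlap with the control (as in 12.8% and 13.3% of all genes). Stk4 fell by 0.20 (SE 0.04, adjusted p 0.000987) and by 0.31 (SE 0.04, adjusted p 1.24e-05). Its paralog Stk3 (MST2) had -0.02 (adjusted p 0.832) and -0.08 (adjusted p 0.352).

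The largest changes on the list were in scarce genes. Vgll3, a vestigial-like cofactor that binds TEAD in place of YAP, ranged from 0.607 to 2.20 CPM in the control, from 3.59 to 7.72 CPM with shRNF185.1 and from 2.20 to 4.28 CPM with shRNF185.3. It rose by 2.13 (SE 0.26, adjusted p 6.31e-06) and by 1.28 (SE 0.27, adjusted p 0.00135), and the hairpins differed by -0.86 (SE 0.24, adjusted p 0.0224). That last call was lost in 7 of 32 alternative analyses, without batch 1 (adjusted p 0.183) or batch 2 (adjusted p 0.0926), with summed libraries (adjusted p 0.0699), and without shRNF185.1 replicate 3 or 4 or shRNF185.3 replicate 2 or 5. Fat4, a giant cadherin that signals to the pathway, ranged from 1.92 to 2.62 CPM in the control, from 3.53 to 6.87 CPM with shRNF185.1 and from 3.50 to 6.53 CPM with shRNF185.3. It rose by 1.12 (SE 0.17, adjusted p 7.81e-05) and by 1.16 (SE 0.17, adjusted p 5.92e-05), and its lowest hairpin library was above its highest control. A separation in either direction was shown by 12.8% of all genes with shRNF185.1 and 13.3% with shRNF185.3, each hairpin taken alone. Taok3, a kinase of the family that activates MST kinases, rose by 0.51 (SE 0.07, adjusted p 1.17e-05) and by 0.38 (SE 0.07, adjusted p 0.000287).

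The remaining regulators named by size had negative values. Wwc1 (KIBRA), a scaffold that promotes LATS activation, ranged from 75.6 to 113 CPM in the control, from 65.0 to 91.3 CPM with shRNF185.1 and from 55.2 to 66.6 CPM with shRNF185.3. It fell by 0.57 (SE 0.10, adjusted p 0.000219) with shRNF185.3, and all 6 of those libraries were below the lowest control. In that comparison 13.3% of all genes were without overlap, in either direction. Its value with shRNF185.1 was -0.15 (SE 0.10, adjusted p 0.253), and the difference between the hairpins was -0.42 (SE 0.10, adjusted p 0.00613). Without batch 2 these became -0.33 (adjusted p 0.0388) and -0.38 (adjusted p 0.058). Mob1b, an activator of LATS kinases, fell by 0.29 (SE 0.08, adjusted p 0.0136) with shRNF185.3, a call lost without batch 1 (adjusted p 0.0903) or batch 3 (adjusted p 0.155). With shRNF185.1 Mob1b had -0.22 (SE 0.08, adjusted p 0.0535). In 6 of 32 alternative analyses it was called there, among them DESeq2 (adjusted p 0.0471) and the offset for GC content and length (adjusted p 0.00497). Between the hairpins 7 of the 23 regulators were called (30.4%, beside 14.7% of all genes), with Taok1 and Amot higher and Nf2, Wwc1, Ptpn14, Limd1 and Vgll3 lower with shRNF185.3.

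Downstream of YAP, 19 further genes of a widely used YAP and TAZ target signature were all testable. With shRNF185.1, 9 of the 19 were called (47.4%, beside 28.9% of all genes): Axl, F3, Fjx1, Foxf2, Ccdc80, Arhgef17 and Tgfb2 were higher and Igfbp3 and Nt5e lower, with a median log2 fold change of 0.18. With shRNF185.3, 7 were called (36.8%, beside 27.3%): F3, Foxf2, Ccdc80, Arhgef17 and Tgfb2 were higher and Asap1 and Igfbp3 lower, with a median of -0.01. The most used readouts were not among them. Ccn1 (CYR61), a matricellular protein, ranged from 560 to 815 CPM in the control, from 633 to 861 CPM with shRNF185.1 and from 611 to 842 CPM with shRNF185.3, and its change was 0.18 (SE 0.10, adjusted p 0.217) with the first hairpin and 0.13 (SE 0.10, adjusted p 0.377) with the second. Ccn2 (CTGF), its relative, ranged from 258 to 526, 294 to 424 and 216 to 388 CPM, with 0.07 (SE 0.17, adjusted p 0.806) and -0.30 (SE 0.17, adjusted p 0.199). Its highest controls were again libraries 6 and 2, at 526 and 405 CPM.

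Among the signature genes with the largest changes, 3 were higher with both hairpins. Ccdc80, a secreted matrix protein, ranged from 29.6 to 39.0 CPM in the control and from 46.7 to 71.4 CPM over the 12 hairpin libraries, and rose by 0.74 (SE 0.09, adjusted p 9.05e-06) and 0.68 (SE 0.09, adjusted p 2.52e-05). Tgfb2, the ligand TGF-beta 2, ranged from 8.76 to 12.7 CPM in the control and from 13.1 to 20.9 CPM in the hairpin libraries, and rose by 0.64 (SE 0.11, adjusted p 0.000165) and 0.74 (SE 0.11, adjusted p 4.04e-05). Arhgef17, a guanine nucleotide exchange factor, rose by 0.42 (SE 0.06, adjusted p 7.38e-05) and 0.34 (SE 0.06, adjusted p 0.000692). All 12 hairpin libraries of each of these 3 genes were above the highest control. With each hairpin alone, 12.8% and 13.3% of all genes were without overlap, in either direction. No share was counted for both hairpins together.

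Others of the signature went the opposite way or rested on few counts. Igfbp3, which encodes a binding protein for insulin-like growth factors, fell by 0.68 (SE 0.15, adjusted p 0.00172) and by 0.74 (SE 0.15, adjusted p 0.000979), with batch differences from -1.33 to -0.07 and from -1.07 to -0.21. Without batch 2 its value with shRNF185.1 was -0.35 (adjusted p 0.0526). Nt5e (CD73), an enzyme that makes adenosine, fell by 1.01 (SE 0.26, adjusted p 0.00717) with shRNF185.1 and had -0.49 (SE 0.26, adjusted p 0.172) with shRNF185.3. The 3 batches of the first comparison gave -1.31, -1.61 and -0.01 for Nt5e, and the call was lost without batch 1 (-0.89, adjusted p 0.0688), without batch 2 (-0.70, adjusted p 0.128) and with summed libraries (adjusted p 0.0584). With shRNF185.3 the batches gave -1.24, -0.86 and 0.76, and Nt5e was called lower there without batch 3 (-1.03, adjusted p 0.00711). Fjx1, a relative of a fly kinase that modifies Fat cadherins, stood at 0.299 to 0.816 CPM in the control and at 0.654 to 1.28 CPM with shRNF185.1. It rose by 0.72 (SE 0.24, adjusted p 0.0299) there, a call that 12 of 32 alternative analyses lost, and had 0.58 (SE 0.24, adjusted p 0.0808) with shRNF185.3. The 12 that lost the call with shRNF185.1 were the replicate block (adjusted p 0.0682), the batch covariate (adjusted p 0.0531), the offset alone or with the block, a fit of the 2 groups alone, no filter, omission of batch 1 or 2 (0.43, adjusted p 0.284), and omission of control 1, 4 or 5 or of shRNF185.1 replicate 4. Between the hairpins 4 of the 19 were called (21.1%, beside 14.7%), Asap1, Axl, Crim1 and Ptpn14, all lower with shRNF185.3. Ptpn14, a phosphatase that binds YAP, is on both lists.

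**Figure D5:**
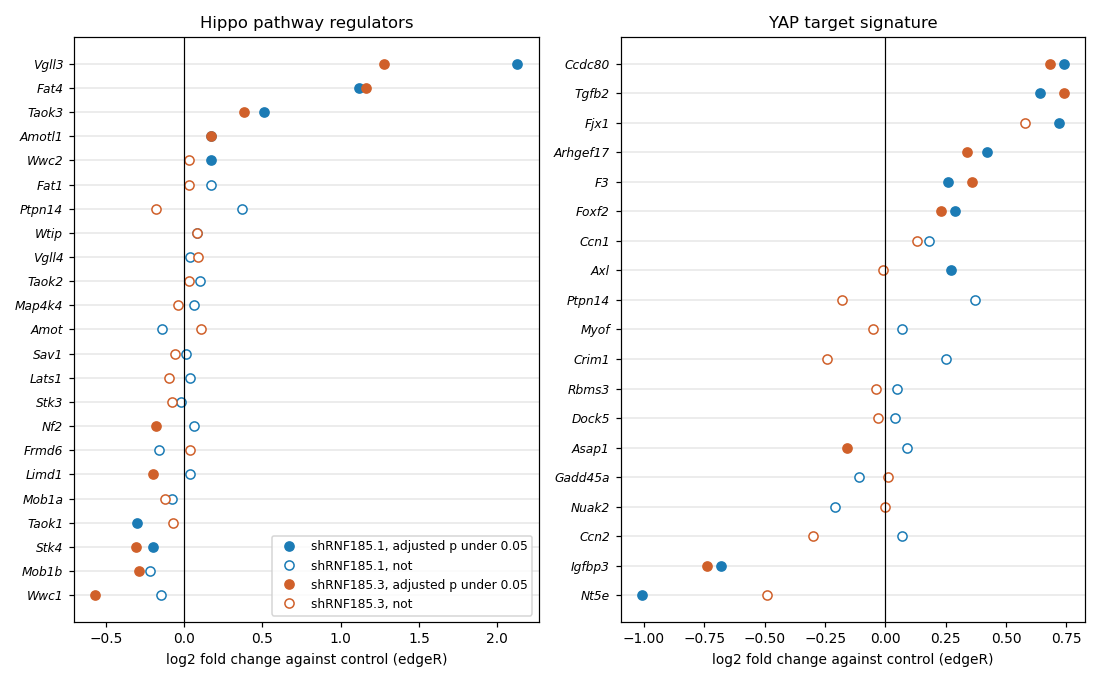
Points give the log2 fold change against control of 23 Hippo pathway regulators (left) and 19 YAP signature genes (right) for shRNF185.1 (blue) and shRNF185.3 (orange), and filled points have an adjusted p under 0.05. Vgll3 (2.13 and 1.28) and Fat4 (1.12 and 1.16) lie farthest to the right, and Nt5e (-1.01 with shRNF185.1) farthest to the left.

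The pattern of each gene over the 18 libraries was also compared with those of 11695 genes with a mean count of at least 50, by the root mean square difference in log2 CPM after centring each gene on its own mean. For Yap1 the nearest genes were Ptgfrn, at a difference of 0.0488, and Ganab, at 0.0564, beside a median of 0.182 over all candidates. Nearest to Wwtr1 were Atf6 (0.0411) and Otud7b (0.0450), beside a median of 0.195. Lats2 and Tead4, the members with the largest mean change, were nearest to Fam222b (0.0677) and Arhgef7 (0.0772), and to Akap1 (0.104) and Gprc5a (0.107), beside medians of 0.280 and 0.322. Since these genes were picked for their likeness over the same libraries, their own differences between groups are not a separate result. No other member was among these nearest genes.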

How the data were processed

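The 10 genes and both pathway lists were chosen with earlier results of these data known. Polyadenylated RNA was sequenced from directional libraries as single 75-base reads, per the labels' protocols. The submitters' processing notes name cutadapt 2.3, STAR 2.7.0d, RSEM 1.3.1 and the build mm10, and the deposited tables are named for ComBat-Seq, a batch adjustment of counts, so batch differences had already been reduced. Whether that adjustment was given the groups is not given in the sources used here. The main fit does not account for it, so its p-values may be too small. With the batch as a covariate, 3559, 3260 and 1631 genes were called (shRNF185.1, shRNF185.3 and between hairpins), beside 4141, 3906 and 2098. The values deposited by the authors are estimated counts (0.466% are not whole), which were rounded, and a table of CPM, a signal that sums to 969986 to 1026394 per library because the authors scaled it between libraries. The design had assumed whole counts, and its test was kept.

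All tests were run on the counts in R 4.3.3 with edgeR 4.0.16: filterByExpr with a minimum count of 10 kept 14309 genes, which held 99.9% of the counts in the median library, scaling was by TMM, and a quasi-likelihood fit of the 3 groups took all 18 libraries with no covariate. P-values were adjusted by Benjamini-Hochberg over all genes tested and called under 0.05. No low-value floor touches the 10 genes: 3 counts correspond to 0.0692 to 0.136 CPM, a limit that covers counting error only. Alternatives used DESeq2 1.42.0, limma 3.58.1 on log2 of the deposited CPM plus 1, other scalings, filters, a batch covariate, a replicate block, an offset for GC content and exonic length, and omission of each batch or library. Libraries of a group differed by more than sampling noise, with a chi-square per gene of 7.64 to 84.4 over 45 pairs. Symbols matched 99.1% of identifiers. Gene positions are GENCODE M21 and promoters RefSeq, both on GRCm38. Beside the 10 genes, the text names Rnf185, Ccn1, Ccn2, the 6 genes of each list with the largest mean change among those called with a hairpin, other called members of a list, and the 2 nearest genes of Yap1, Wwtr1 and the 2 members with the largest mean change. Lats1 and Stk3 were named as paralogs after their values were seen. Some of the marker genes examined are not reported here.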

Additional observations from a re-analysis of the deposited data

Results flagged for a closer look

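In 2 of the 30 combinations of gene and group a single library stood apart from the other 5 by Dixon's criterion, where chance alone would give about 1.5. Tead4 in shRNF185.3 replicate 1 was at 4.16 log2 CPM with the next library at 3.87 (17.9 and 14.6 CPM), and it is the library of that group that lies within the control range. Ankrd1 in shRNF185.3 replicate 3 was at 7.23 log2 CPM with the next library at 6.75 (151 and 107 CPM), and without it the log2 fold change of Ankrd1 with shRNF185.3 was -0.09 in place of 0.04.

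Among the 10 genes, Rnf185, Ccn1, Ccn2 and the 12 list genes named by size, 4 were called in the test between the hairpins. Of all genes tested, 14.7% were. The 4 were Yap1 (0.14, adjusted p 0.0251), Tead2 (0.28, adjusted p 0.0212), Vgll3 (-0.86, adjusted p 0.0224) and Wwc1 (-0.42, adjusted p 0.00613). Each value is shRNF185.3 minus shRNF185.1 on the log2 scale from edgeR. The 12 list genes had been named for large changes in these same data. Of 32 alternative analyses, 12 lost the call of Yap1, 9 that of Tead2, 7 that of Vgll3 and 1 that of Wwc1. The 12 hairpin libraries had Rnf185 at 5.19 to 6.80 CPM, and the part of its remaining level in these differences was not tested.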

How the results depend on the processing

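Of 30 log2 fold changes of the 10 genes, 13 kept their direction and side of the threshold under all 32 alternatives, among them both of Lats2, Tead2 with shRNF185.1 and Tead4 with shRNF185.3. Without batch 1, 2 of the 10 genes were called with shRNF185.1, and all genes called were 2207, 2120 and 753 (shRNF185.1, shRNF185.3 and between hairpins, beside 4141, 3906 and 2098). Without batch 2 the count between hairpins was 1208, and without batch 3 that of shRNF185.3 was 2501. Hippo regulators called with shRNF185.3 were 5 without batch 1 and 5 without batch 3. Between hairpins, members called were 0 without batch 1, 2 or 3, with no filter, or with the GC and length offset, 1 with the batch covariate, with summed libraries or with the offset and replicate block, and 0 to 2 with a library left out. Regulators called between hairpins were 3 without batch 1, 1 without batch 2, 12 with the offset and 4 to 8 with a library left out, and signature genes 1 without batch 1 and 1 without batch 2. With shRNF185.1, 5119 genes were called without batch 2. The cause of these shifts was not tested. The share of calls that were higher between hairpins was 52.7%, 42.6% with the offset and 62.4% without batch 1.

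Signs turned for uncalled values. Without batch 2, Wwtr1 (0.04) and Amotl2 (-0.02) did so with shRNF185.1, Amotl2 (-0.10) and Ankrd1 (-0.28) with shRNF185.3, and Tead4 (0.07), Lats2 (0.01), Fat4 (-0.18) and Fjx1 (0.10) between hairpins. Ccn2 with shRNF185.1 was -0.03 without batch 1 and -0.02 without batch 2. Without batch 1, Wwtr1 (0.01), Tead3 (0.01), Ccn1 (0.03), Mob1b (0.02), Igfbp3 (0.06) and Ccdc80 (0.05, and 0.02 without batch 3) turned between hairpins. The offset gave -0.06 for Amotl2 with shRNF185.3, and -0.05 with the replicate block added. With a library left out, values ran from -0.03 to 0.13 for Amotl2 and -0.09 to 0.19 for Ankrd1 (shRNF185.3), from -0.01 to 0.22 for Ccn2 (shRNF185.1), and between hairpins from -0.04 to 0.02 for Wwtr1, -0.11 to 0.01 for Tead3, -0.06 to 0.01 for Lats2 and -0.05 to 0.15 for Fat4.

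The labels do not say that numbers pair the libraries, and not every pair correlated. Deviations from the group mean of same-numbered libraries of different groups had a mean correlation of -0.0144 (4 of 18 pairs over 0.1). It was -0.434 for the other number of the same batch and 0.111 for other batches, where odd and even numbers are mixed. Of 18 libraries, 2 were closest to their own number. Centring on the group in batch-adjusted counts can lower correlations within a batch. These values therefore do not decide whether the numbers pair the libraries. With the replicate block 3811, 3578 and 1976 genes were called, no call among the 10 genes changed, and of the other genes named by rule Fjx1 with shRNF185.1 lost its call (adjusted p 0.0682).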
